A study of Homo sapiens with 23 samples.

Results

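Hepcidin and 9 other genes that move, sense or store iron were followed by mRNA-seq in 2 established human cell lines, Caco-2 from a colorectal adenocarcinoma as gut-mimicking cells and HepG2 from a liver cancer as hepatocyte-like cells. The genes were HAMP, SLC40A1, TFR2, HFE, TMPRSS6, TF, TFRC, SLC11A2, FTH1 and FTL, and all 10 were found by symbol among the 60564 genes listed in each of 23 libraries. They were chosen by a measured value, the difference of HAMP between co-cultured and mono-cultured HepG2 cells, which was known when the set was made. Differences between cultures are therefore given below for these genes as a description, without a test. Comparisons of treatments and of cell lines were not used in that choice and were tested.

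The cells grew alone (mono-culture) or together (co-culture) in the iGLC platform, a chip that joins gut and liver cells, where a pump circulates medium between a gut chamber and a liver chamber. For 1 day they received either 1 mM free fatty acids (FFAs, palmitic and oleic acid) or no FFAs (control). The labels give 0.5% FBS in the medium of both arms, whereas the methods of the study describe medium without serum. There were 4 groups a line with 3 libraries each, except co-cultured control Caco-2 cells with 2, which makes 11 Caco-2 and 12 HepG2 libraries. Both lines are single tumour-derived lines, and the methods speak of independent experiments and biological replicates. The labels do not tie single libraries to them, so p-values measure the spread between these libraries, part of which may be technical.

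Values are TPM, a gene-length-corrected share of transcripts, which have a fixed total in each library, so that a rise of abundant genes lowers the share left for the rest, and read depth is unknown. In bulk libraries, fewer cells of a kind and less RNA per cell cannot be told apart. The number of genes above 0 TPM ran from 19259 to 23689. In HepG2 cells, the library numbered 3 of each of the 4 groups had the most genes above 0 TPM (21588 to 22416, against 19259 to 20873 in the other 8). The cell types were checked against marker genes. Summed TPM of 7 hepatocyte markers were 46914 to 74426 in HepG2 and 3719 to 5615 in Caco-2 cells, and those of 8 intestinal markers were 155 to 245 and 863 to 1157. Caco-2 cells thus contained hepatocyte transcripts in mono-culture as well, and HepG2 libraries had 2 to 4 of the intestinal markers listed at 0, with VIL1 holding nearly all of their sum.

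Hepcidin is a peptide hormone made mainly by hepatocytes. It binds ferroportin, the iron exporter of gut and macrophage cells encoded by SLC40A1, and causes its degradation, so that less iron enters the blood. In the liver, HAMP transcription is raised by BMP-SMAD signalling, in which transferrin receptor 2 and HFE report on iron-loaded transferrin and the protease matriptase-2 (TMPRSS6) acts against it, and by IL-6 through STAT3. Inside cells, iron regulatory proteins bind stem-loops called iron responsive elements in the untranslated ends of transcripts, which blocks translation when the element is at the front and stabilizes the TFRC transcript when it is at the end.

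The HAMP promoter is shown because it carries letters of both inputs. The 250 bases before its start site (chr19:35282278-35282527, plus strand, RefSeq, GRCh38.p14) read as follows, with GGCGCC, the core of the BMP-responsive element, and TTCTTGGAA, a STAT3 site, in capitals.
HAMP: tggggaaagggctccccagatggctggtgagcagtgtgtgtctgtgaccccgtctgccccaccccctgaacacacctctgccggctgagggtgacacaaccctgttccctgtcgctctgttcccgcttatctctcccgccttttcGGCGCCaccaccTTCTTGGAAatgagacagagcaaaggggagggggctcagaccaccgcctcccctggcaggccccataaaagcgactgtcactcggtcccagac

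GGCGCC began 105 bases before the start and TTCTTGGAA began 93 bases before it, with no overlap. On either strand, GGCGCC occurred in 16.4% of 35116 promoter windows of the same length and TTCTTGGAA in 0.310%. Among the 7 of 10 genes with a promoter entry, GGCGCC was also present before TF (3 times) and TFRC (once), and TTCTTGGAA only before HAMP. A match is a run of letters and was not tested as a binding site.

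Iron responsive element letters were searched in coding transcripts of GENCODE v44 (GRCh38) as a C, 5 bases, the loop CAGTGN, and 5 bases that could pair with the first 5, G-U pairs included. They are shown because they place the matches at the front or the end of each transcript. A match is not by itself an established element. Of 19676 coding genes, 0.198% had such a match in a 5′ UTR and 0.722% in a 3′ UTR. The loop is in capitals, and the coordinates span the C to the last paired base.
FTH1, 5′ UTR, chr11:61967580-61967596, minus strand: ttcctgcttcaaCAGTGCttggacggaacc
FTL, 5′ UTR, chr19:48965341-48965357, plus strand: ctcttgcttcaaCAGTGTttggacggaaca
SLC40A1, 5′ UTR, chr2:189580667-189580683, minus strand: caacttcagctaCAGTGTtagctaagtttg
TFRC, 3′ UTR, chr3:196050985-196051001, minus strand: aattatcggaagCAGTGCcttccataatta
TFRC, 3′ UTR, chr3:196050581-196050597, minus strand: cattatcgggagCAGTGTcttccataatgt
TFRC, 3′ UTR, chr3:196050516-196050532, minus strand: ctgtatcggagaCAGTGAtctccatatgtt
TFRC, 3′ UTR, chr3:196050469-196050485, minus strand: aattatcgggaaCAGTGTttcccataattt

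The FTH1 and FTL elements shared the stretch gcttcaaCAGTG, and TFRC had 4 matches in its 3′ UTR. A further match lay in the 3′ UTR of a long annotated TF transcript. The other 5 genes had no stretch of these letters in an annotated UTR, which does not speak to elements of other letters, such as the one SLC11A2 is known for in some of its transcripts.

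HAMP (ENSG00000105697, chromosome 19, 35280716 to 35285143, plus strand in GENCODE v44) had the widest range of the 10 genes within HepG2 cells on the log2 scale. In co-cultured control HepG2 cells its 3 libraries had 84.9, 64.2 and 153 TPM, and in co-cultured FFAs-treated cells 15.4, 136 and 45.9 TPM. In mono-cultured control cells they had 0.63, 1.45 and 1.14 TPM, and in mono-cultured FFAs-treated cells 0.61, 0 and 5.43 TPM. All 6 co-cultured libraries lay above all 6 mono-cultured ones, with 15.4 TPM as the lowest of the first and 5.43 TPM as the highest of the second. Of all genes tested in HepG2 cells, 0.589% had every co-cultured library above every mono-cultured one, and HAMP was the only member among them. The group means were 101 ± 46.4 TPM (SD, n = 3) against 1.07 ± 0.414 TPM (SD, n = 3) in controls, a ratio of 93.8. With FFAs they were 65.7 ± 62.6 TPM (SD, n = 3) against 2.01 ± 2.97 TPM (SD, n = 3), a ratio of 32.6. On the log2(TPM + 1) scale, which understates changes of low genes, the difference averaged over both treatments was 4.99 (SE 0.53). It ranged from 4.61 to 5.38 with single libraries left out and was 5.23 without the 4 libraries numbered 3.

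**Figure D1:**
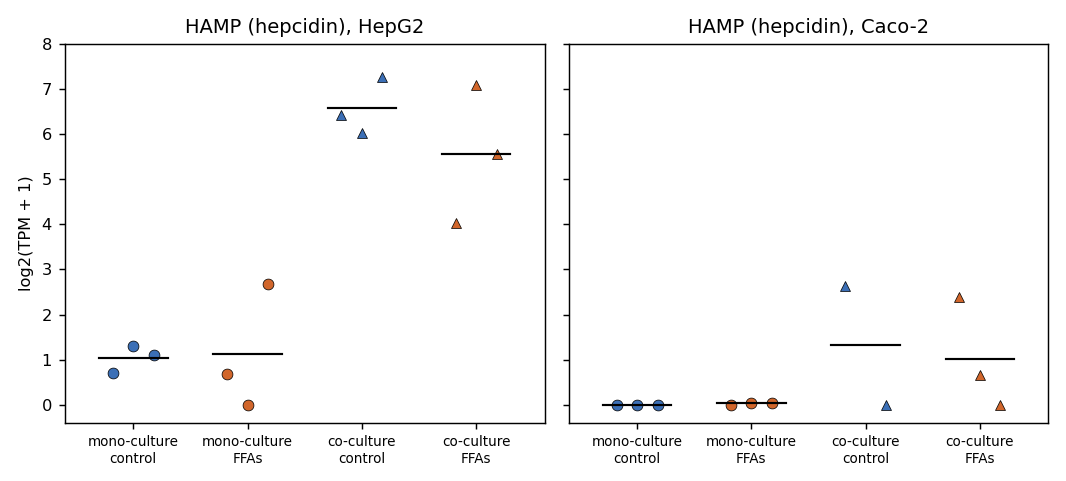
HAMP in each library as log2(TPM + 1), HepG2 cells on the left and Caco-2 cells on the right, by culture and treatment, with a horizontal line at each group mean. The 6 co-cultured HepG2 libraries stand above the 6 mono-cultured ones, and in Caco-2 cells 3 of 5 co-cultured libraries stand above the mono-cultured ones.

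In Caco-2 cells, HAMP was listed at 0 in the 3 mono-cultured control libraries and at 0, 0.03 and 0.03 TPM in those with FFAs. The co-cultured libraries had 5.18 and 0 TPM in the control and 4.20, 0.59 and 0 TPM with FFAs. The values overlapped between the cultures, since 2 co-cultured libraries were also at 0. The highest were the libraries numbered 1 of both treatments. In Caco-2 cells, 0.749% of genes tested had every co-cultured library above every mono-cultured one, and no member was among them.

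The same 2 Caco-2 libraries were high in TF, the gene of transferrin, a plasma iron carrier made by the liver. TF had 42.8 and 4.17 TPM in co-cultured control Caco-2 cells and 133, 10.2 and 6.06 TPM in co-cultured FFAs-treated cells. Mono-cultured Caco-2 libraries had 6.41, 9.45 and 5.11 TPM without FFAs and 7.0, 8.89 and 6.72 TPM with FFAs. The 2 libraries numbered 1 stood above all others, while the remaining 3 co-cultured libraries lay in or next to the mono-cultured range. The difference between cultures in TF was 1.16 (SE 0.72) on the log2(TPM + 1) scale with all libraries and -0.26 without the 2 libraries numbered 1. HAMP no longer reached the level for testing in Caco-2 cells once both were left out.

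HepG2 cells are the chamber partner of the co-cultured Caco-2 cells and had TF between 5680 and 9359 TPM. The level of each co-cultured Caco-2 library above the mono-culture mean was therefore expressed as a percentage of the co-cultured HepG2 mean of the same treatment. For HAMP, it was 5.14% and 0% in the control and 6.36%, 0.867% and -0.0304% with FFAs. For TF, it was 0.572% and -0.0451% in the control and 1.77%, 0.0381% and -0.0208% with FFAs. The percentages of HAMP and TF differed within the 2 libraries numbered 1. Of the 7 hepatocyte markers, 2 and 1 stood above every mono-cultured Caco-2 library in the co-cultured controls and 3, 4 and 1 in the co-cultured FFAs-treated libraries, and none was at 0 in any Caco-2 library. FGB, a fibrinogen chain, was part of each of these counts, at 147 to 221 TPM in co-cultured against 39.3 to 118 TPM in mono-cultured Caco-2 libraries. Summed hepatocyte markers overlapped between co-cultured (4499 to 5615 TPM) and mono-cultured (3719 to 5240 TPM) Caco-2 cells. The part of HepG2 transcripts in these values was not tested.

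**Figure D2:**
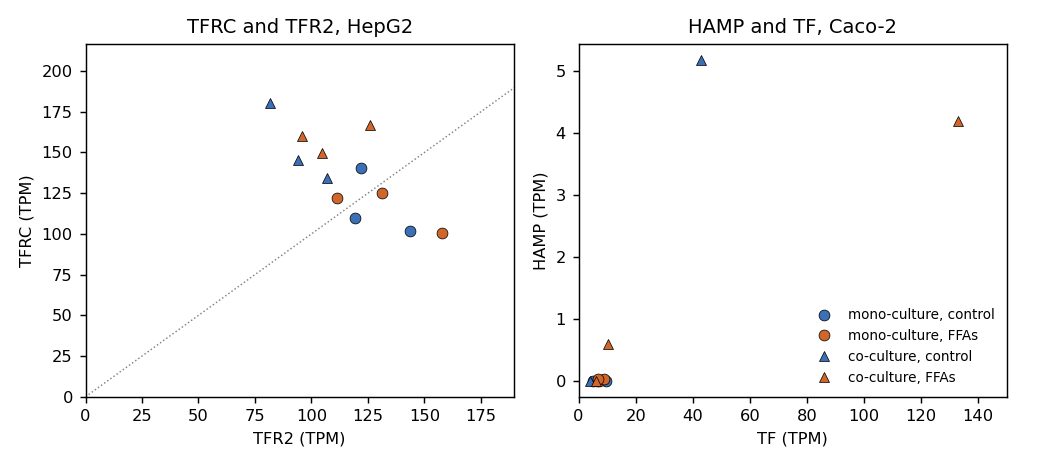
Left, TFRC against TFR2 in the 12 HepG2 libraries, in TPM, with a dotted line where both are equal. Right, HAMP against TF in the 11 Caco-2 libraries, in TPM. Each point is 1 library, its shape giving the culture and its colour the treatment. All 6 co-cultured and 2 mono-cultured HepG2 libraries lie above the dotted line, and 2 co-cultured Caco-2 libraries stand apart in TF and HAMP.

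SLC40A1 (ENSG00000138449, chromosome 2) encodes ferroportin, the target of hepcidin. In HepG2 cells it had 21.6, 17.5 and 30.4 TPM in co-cultured controls and 17.9, 16.1 and 27.8 TPM with FFAs. Mono-cultured cells had 25.4, 24.1 and 44.2 TPM without FFAs and 19, 26.8 and 37.1 TPM with FFAs. The cultures overlapped, and the library numbered 3 was the highest of its group in all 4 groups. The co-culture difference was -0.40 (SE 0.22) in HepG2 cells and 0.09 (SE 0.13) in Caco-2 cells (-0.02 without co-cultured FFAs-treated replicate 2), where the level was 108 to 219 TPM over 11 libraries with a median of 130 TPM.

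TFR2 and HFE encode the partner membrane proteins that sense transferrin iron upstream of HAMP. TFR2 had 107, 94.3 and 81.7 TPM in co-cultured control and 96.0, 105 and 126 TPM in co-cultured FFAs-treated HepG2 cells. In mono-culture it had 119, 143 and 122 TPM without FFAs and 111, 131 and 158 TPM with FFAs. All 6 co-cultured libraries were below the mono-culture mean of their treatment, as were those of 9.38% of all genes tested, although the ranges overlapped, and the difference was -0.37 (SE 0.11). HFE was at 4.04 to 7.67 TPM in co-cultured and 5.68 to 9.35 TPM in mono-cultured HepG2 cells, with a difference of -0.20 (SE 0.17) and 4 of 6 co-cultured libraries below the mono-culture mean. In Caco-2 cells the difference of HFE was -0.14 (SE 0.11). That of TFR2 was 0.11 (SE 0.19) and turned with the libraries used, to -0.13 without both libraries numbered 1 and to -0.05 without co-cultured control replicate 1.

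TMPRSS6, the protease that restrains the BMP input to HAMP, was the lowest member in HepG2 cells after mono-cultured HAMP. Co-cultured HepG2 cells had 1.21, 2.41 and 0.93 TPM without FFAs and 1.28, 1.67 and 1.39 TPM with FFAs. Mono-cultured cells had 2.28, 2.20 and 1.55 TPM without FFAs and 2.65, 3.62 and 2.31 TPM with FFAs. The FFAs-treated groups did not overlap and the controls did. With FFAs, 5.44% of all genes had every co-cultured library below every mono-cultured one. The averaged difference was -0.47 (SE 0.17). At levels this close to 1 TPM the pseudocount matters, and the difference was -0.70 with a pseudocount of 0.1. In Caco-2 cells TMPRSS6 lay between 3.38 and 11.4 TPM and the difference was 0.19 (SE 0.25).

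TF in HepG2 cells had 5680, 7263 and 5823 TPM in co-cultured controls and 6987, 6887 and 7387 TPM with FFAs. In mono-culture it had 6802, 8767 and 7265 TPM without FFAs and 8144, 9359 and 8770 TPM with FFAs. All 6 co-cultured libraries were below the mono-culture mean of their treatment, as were those of 9.38% of all genes tested. With FFAs the cultures did not overlap, as in 5.44% of all genes with every co-cultured library below. The difference was -0.29 (SE 0.09), and -0.09 after quantile normalization. Summed hepatocyte markers moved in the same direction, with a median of 58427 TPM in co-cultured and 68046 TPM in mono-cultured HepG2 cells, and their part in the TF values was not tested.

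TFRC (ENSG00000072274, chromosome 3) encodes transferrin receptor 1, the general route of iron uptake, and its transcript carries the 4 stem-loops above. In HepG2 cells it had 134, 145 and 181 TPM in co-cultured controls and 160, 150 and 167 TPM with FFAs. Mono-cultured cells had 110, 102 and 141 TPM without FFAs and 122, 125 and 101 TPM with FFAs. All 6 co-cultured libraries were above the mono-culture mean of their treatment, as were those of 6.69% of all genes tested. Only the mono-cultured library at 141 TPM reached into their range, and the difference was 0.42 (SE 0.10). The ratio of TFRC to TFR2 within a library was 1.26 to 2.21 in co-cultured and 0.637 to 1.15 in mono-cultured HepG2 cells. It divides a member that was higher in co-culture by one that was lower, and each alone overlapped between the cultures. The share of other gene pairs that separate in this way was not computed, so nothing is read from the ratio.

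In Caco-2 cells the direction of TFRC was the other way. Co-cultured libraries had 196 and 115 TPM without FFAs and 218, 166 and 166 TPM with FFAs. Mono-cultured libraries had 229, 291 and 227 TPM without FFAs and 261, 216 and 158 TPM with FFAs. In the controls the cultures did not overlap, as in 7.99% of all genes with every co-cultured library below, and with FFAs they did. The difference was -0.45 (SE 0.16), with 4 of 5 co-cultured libraries below the mono-culture mean of their treatment. It was -0.70 without the 2 libraries numbered 1, and from -0.64 to -0.26 with single libraries left out, the smallest without co-cultured control replicate 2. A test of the difference between the lines was not made, since the culture contrast was known when the genes were chosen.

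SLC11A2, which encodes the divalent metal transporter DMT1 of the gut brush border and endosomes, varied least between cultures. It was at 47.5 to 54.0 TPM in co-cultured and 44.1 to 66.7 TPM in mono-cultured HepG2 cells, and at 95.8 to 108 TPM and 93.8 to 108 TPM in Caco-2 cells. The differences were -0.10 (SE 0.08) and -0.02 (SE 0.06). All 6 co-cultured HepG2 libraries were nonetheless below the mono-culture mean of their treatment, as were those of 9.38% of all genes tested, although the ranges overlapped.

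FTL and FTH1 encode the light and heavy chains of ferritin, the iron storage shell. FTL had 40213, 38441 and 43646 TPM in co-cultured control HepG2 cells and 38433, 38036 and 33275 TPM with FFAs. In mono-culture it had 30942, 30104 and 35339 TPM without FFAs and 34014, 30221 and 28724 TPM with FFAs. All 6 co-cultured libraries were above the mono-culture mean of their treatment, as were those of 6.69% of all genes tested. Only the FFAs-treated co-cultured library at 33275 TPM lay below the highest mono-cultured values. The FTL difference was 0.29 (SE 0.08) in HepG2 cells and 0.15 (SE 0.07) in Caco-2 cells, where all 5 co-cultured libraries were above the mono-culture mean, as were those of 10.7% of all genes tested.

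FTH1 was at 8894 to 12219 TPM in co-cultured and 8379 to 10938 TPM in mono-cultured HepG2 cells, a difference of 0.15 (SE 0.10). In Caco-2 cells it was at 4660 to 5383 TPM and 4184 to 5199 TPM, a difference of 0.12 (SE 0.07). There 5 of 5 co-cultured libraries were above the mono-culture mean, as in 10.7% of all genes tested. After quantile normalization the FTL difference in Caco-2 cells was 0.03. Together the chains took 1.54 to 2.04% of all TPM in Caco-2 and 3.87 to 5.59% in HepG2 cells, and FTL was the first or second most abundant gene of every library. FTL exceeded FTH1 2.38 to 2.80 times in Caco-2 and 2.82 to 4.32 times in HepG2 cells. Reads that ferritin shares with its near-identical pseudogenes may be split between them. The 40 pseudogenes of both chains summed to 24.1 to 63.4 TPM in a library.

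**Figure D3:**
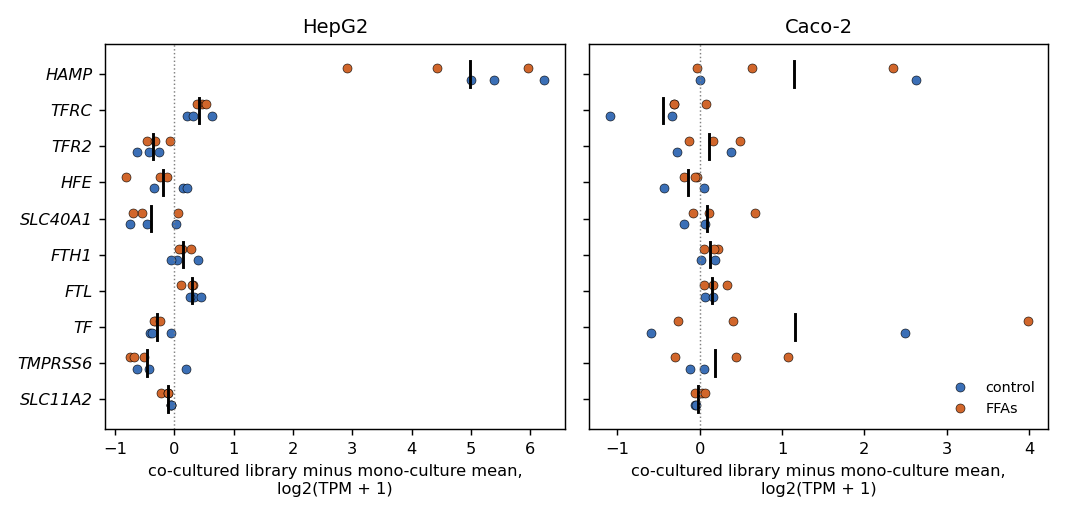
Difference of each co-cultured library from the mean of the mono-cultured libraries of the same treatment, in log2(TPM + 1), for the 10 genes in HepG2 (left) and Caco-2 cells (right). Points are libraries, coloured by treatment, and vertical bars are the differences averaged over both treatments, 4.99 for HAMP in HepG2 cells and between -0.47 and 0.42 for the other 9 genes there.

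The median co-culture difference of all genes tested was -0.02 in HepG2 and 0.03 in Caco-2 cells. For orientation, limma (threshold of 0.05 on the adjusted p) called 8 of 14255 HepG2 genes (0.0561%) between the cultures and 0 of 15081 Caco-2 genes (0%), with 1789 and 1578 genes at an unadjusted p under 0.05. With the replicate number as a block, 492 genes were called in HepG2 cells. Nothing is read from these shares for the 10 genes.

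The treatment comparison asked whether 1 day of FFAs changed these genes in either line. No member passed limma's test at an adjusted p under 0.05, averaged over both cultures, and neither did any other gene: 0 of 14255 (0%) in HepG2 and 0 of 15081 (0%) in Caco-2 cells, against 497 and 601 at an unadjusted p under 0.05. HAMP differed by -0.46 (SE 0.53, limma adjusted p = 1.0) in HepG2 cells, where 2 of 6 treated libraries were above and 4 below the control mean of their culture. Its co-cultured FFAs-treated libraries spanned 15.4 to 136 TPM and enclosed the control values of 64.2 and 84.9 TPM.

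SLC11A2 was higher than the control mean in all 6 FFAs-treated libraries of each line, as were 3.01% of all genes in HepG2 and 5.21% in Caco-2 cells. The differences were 0.19 (SE 0.08, limma unadjusted p = 0.0449, adjusted p = 1.0) in HepG2 and 0.09 (SE 0.06, limma adjusted p = 0.99) in Caco-2 cells. Co-cultured HepG2 cells had 47.6, 47.6 and 47.5 TPM without FFAs and 49.7, 54.0 and 53.9 TPM with FFAs, which did not overlap, as in 3.02% of all genes with the treated libraries above. The mono-cultured groups did overlap. TF in HepG2 cells was also higher in 6 of 6 treated libraries, by 0.20 (SE 0.09, limma unadjusted p = 0.0431, adjusted p = 1.0). SLC40A1 in Caco-2 cells was higher in 6 of 6, by 0.30 (SE 0.13, limma unadjusted p = 0.0352, adjusted p = 0.99), with the co-cultured treated library at 219 TPM as the highest. HFE in Caco-2 cells was lower in 6 of 6, as were 2.92% of all genes, by -0.16 (SE 0.11, limma adjusted p = 0.99). None of these held after adjustment over all genes.

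The remaining FFAs differences of the 10 genes did not pass either. In HepG2 cells they lay between -0.17 for SLC40A1 and 0.18 for TMPRSS6 beside those given. In Caco-2 cells TF differed by 0.34 (SE 0.72) and HAMP by -0.13 (SE 0.49), which ran from -0.44 to 1.11 and from -0.79 to 0.52 with single libraries left out. Whether the FFAs effect differed between co-culture and mono-culture was tested as an interaction, and limma called 0 of 14255 genes (0%) in HepG2 and 0 of 15081 (0%) in Caco-2 cells, with 166 and 292 at an unadjusted p under 0.05. The interaction of HAMP in HepG2 cells was -1.10 (SE 1.05, limma adjusted p = 1.0), and that of TFRC in Caco-2 cells 0.53 (SE 0.32, limma adjusted p = 1.0).

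The lines were compared in mono-cultured controls, where neither FFAs nor a partner was present. Of all genes tested, 10286 of 16495 (62.4%) passed limma's test, and 9 of the 10 members were among them, so that passing sets these genes little apart. The median gene was 0.20 lower on the log2 scale in HepG2 cells, and the split was 3857 higher to 6429 lower as deposited, 5002 to 5185 after quantile normalization and 4769 to 5256 after median-of-ratios scaling. Log2 differences below are HepG2 minus Caco-2 and are to be read against that median of -0.20.

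TF, TFR2, FTL and FTH1 were higher in HepG2 cells. TF differed most, by 9.92 (SE 0.75, limma adjusted p = 7.6e-10), with 7611 ± 1027 TPM (SD, n = 3) in HepG2 against 6.99 ± 2.23 TPM (SD, n = 3) in Caco-2 cells. TFR2, whose protein is best known from hepatocytes, differed by 4.64 (SE 0.21, limma adjusted p = 2.5e-13), with 128 ± 13.2 TPM (SD, n = 3) against 4.28 ± 1.36 TPM (SD, n = 3), a ratio of 30.0. FTL differed by 1.46 (SE 0.09, limma adjusted p = 4.9e-11) and FTH1 by 1.00 (SE 0.12, limma adjusted p = 8.8e-07). Both kept the call after median-of-ratios scaling. Quantile normalization gives equal values to equal ranks and so leaves no difference in FTL, first or second in every library, while FTH1 then differed by 0.28 (limma adjusted p = 0.088).

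SLC40A1, HFE, TMPRSS6, TFRC and SLC11A2 were lower in HepG2 cells. SLC40A1 differed by -2.0 (SE 0.27, limma adjusted p = 2.2e-06), with 31.2 ± 11.2 TPM (SD, n = 3) against 124 ± 15.5 TPM (SD, n = 3). HFE differed by -1.38 (SE 0.21) and TMPRSS6 by -1.12 (SE 0.30), with limma adjusted p of 1.1e-05 and 0.0028. TFRC differed by -1.08 (SE 0.20, limma adjusted p = 9.0e-05) and SLC11A2 by -0.99 (SE 0.09, limma adjusted p = 2.2e-08), so that transcripts of the exporter and of the brush border importer were both more abundant in the gut line. For TFRC this holds for mono-culture, since its means in co-cultured controls were 153 TPM in HepG2 and 155 TPM in Caco-2 cells. HAMP differed by 1.03 (SE 0.76, limma adjusted p = 0.25), with about 1 TPM in mono-cultured HepG2 cells and 0 listed in Caco-2 cells. The SE draws on the spread of all 8 groups, co-cultured ones included. The groups compared here had an SD of 0.30 in HepG2 and 0 in Caco-2 cells on the log2(TPM + 1) scale. With a pseudocount of 0.1, HAMP differed by 3.48 (limma adjusted p = 0.038).

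**Figure D4:**
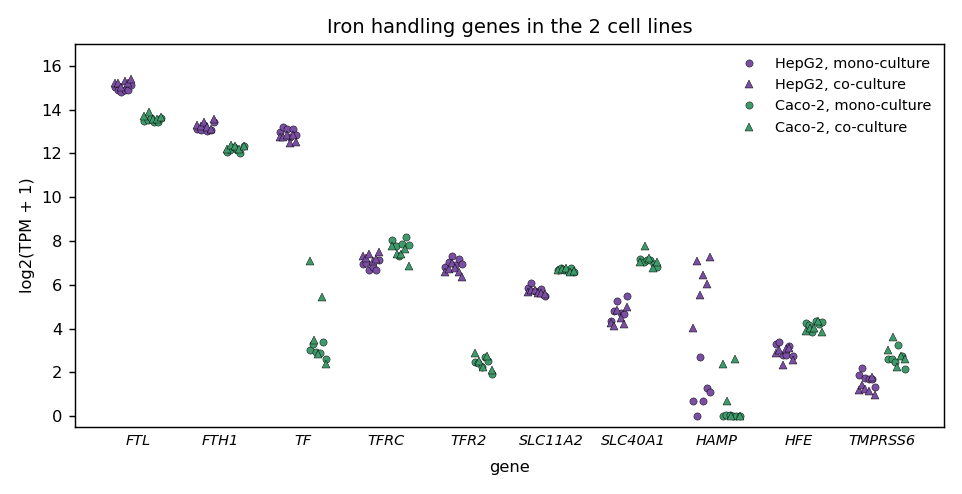
Level of the 10 genes in every library as log2(TPM + 1), ordered by their mean in HepG2 cells, with colour for the cell line and shape for the culture. FTL and FTH1 lead in both lines, TF is near them in HepG2 cells only, and HAMP spans from 0 to 7.27 in HepG2 cells.

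TPM are per transcript length, so levels may be ordered between genes. In HepG2 cells the order by mean was FTL, FTH1, TF, TFRC, TFR2, SLC11A2, HAMP, SLC40A1, HFE and TMPRSS6. The place of HAMP held in neither culture, since its mean of 83.2 TPM in co-culture stood above SLC11A2 (50.1 TPM) and its mean of 1.54 TPM in mono-culture below TMPRSS6 (2.44 TPM). FTH1 and TF overlapped over the 12 libraries (8379 to 12219 against 5680 to 9359 TPM), as did TFRC and TFR2 (101 to 181 against 81.7 to 158 TPM), and SLC40A1 met SLC11A2 at 44.2 and 44.1 TPM. HFE (4.04 to 9.35 TPM) and TMPRSS6 (0.93 to 3.62 TPM) did not overlap, and HAMP overlapped all of the 5 members from TFR2 to TMPRSS6 in level, and TFRC as well. In Caco-2 cells the order by mean was FTL, FTH1, TFRC, SLC40A1, SLC11A2, TF, HFE, TMPRSS6, TFR2 and HAMP. There TFRC, SLC40A1 and SLC11A2 overlapped as neighbours, as did TMPRSS6 and TFR2, while TF stood above HFE in mean only through the 2 libraries numbered 1, since its median was 7.0 TPM against 16.7 TPM for HFE.

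Beyond the 10 genes, 92 other genes of iron handling in 11 lists were examined, of which 77 in HepG2 and 79 in Caco-2 cells reached the level for testing. None was called for FFAs or for the interaction in either line, and none for co-culture in Caco-2 cells. For co-culture in HepG2 cells 2 were called, both higher, with 38 of 77 above 0 and 39 below. Both belong to the BMP-SMAD targets, whose culture difference was known when the lists were made, so that their p-values are not independent evidence. They were ID2 (0.92, SE 0.11, limma adjusted p = 0.013) and SMAD7 (0.89, SE 0.12, limma adjusted p = 0.025), which respond to BMP-SMAD signalling, ID2 as an inhibitor of differentiation factors and SMAD7 as a feedback inhibitor of the pathway. Leaving out single libraries gave an adjusted p of 0.019 to 0.059 for ID2 and 0.025 to 0.13 for SMAD7, and without the 4 libraries numbered 3 both missed the threshold (0.065 and 0.090).

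With the replicate number as a block, 9 of the 77 genes were called for co-culture in HepG2 cells, 6 higher and 3 lower, against 3.45% of all genes. The lists were made with earlier results of these data known, and the block was taken from these data. The p-values with the block are therefore not independent evidence either. The higher genes were ID1, ID2, ID3, SMAD7, FURIN and MCOLN1, an endosomal and lysosomal cation channel. The lower genes were CREB3L3, ALAD, an enzyme of heme synthesis, and FGG, a fibrinogen chain. Of the BMP-SMAD targets, ID1 (1.88, SE 0.13, limma adjusted p = 0.00052) and ID3 (1.51, SE 0.14, limma adjusted p = 0.0032) thus passed with the block and missed the threshold without it. In Caco-2 cells the block called 0 of 79 listed genes with limma.

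All 6 tested genes of the 8 BMP-SMAD targets were above 0 in HepG2 cells, with a median of 0.90 against -0.02 over all genes. ID1 had 166 to 586 TPM (median 300.0) in co-cultured and 53.0 to 157 TPM (median 71.8) in mono-cultured cells, a difference of 1.88 (SE 0.36, limma adjusted p = 0.098), without overlap. ID3 had 65.3 to 178 TPM against 27.9 to 56.6 TPM, a difference of 1.51 (SE 0.24, limma adjusted p = 0.051), also without overlap. Of all genes tested, 0.589% had every co-cultured library above every mono-cultured one. ID2 and SMAD7 did not overlap either. BAMBI (31.6 to 83.2 against 19.3 to 54.3 TPM) and SMAD6 (2.12 to 2.66 against 1.57 to 3.15 TPM) overlapped between the cultures. In Caco-2 cells the same 6 genes were above 0 with a median of 0.28, and SMAD7 differed by 0.63 (limma adjusted p = 0.27).

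On the input side, the 15 genes of BMP ligands, receptors and hemojuvelin had 11 tested in HepG2 cells, 9 above 0 with a median of 0.10, and those with the largest differences were FURIN (0.68, limma adjusted p = 0.19, and 0.021 with the block) and ACVR1 (0.22). FURIN encodes a protease that cleaves BMP precursors and hemojuvelin. HJV, the gene of hemojuvelin, a coreceptor of BMP for HAMP in hepatocytes, was listed between 0 and 0.07 TPM over all 12 HepG2 libraries. BMP6, a main ligand in liver made by endothelial cells, was at 0.02 to 0.90 TPM in HepG2 and 0 to 0.22 TPM in Caco-2 cells. BMP2 was at 13.8 to 27.6 TPM in Caco-2 and at 0.05 to 0.42 TPM in HepG2 cells. The ranges of BMP2 overlapped between cultures in both lines.

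The 10 STAT3 and acute-phase targets were split in HepG2 cells, with 3 of 6 tested above 0 and 3 below and a median of -0.06. SOCS3, the feedback inhibitor of cytokine receptors, differed by 0.69 (limma adjusted p = 0.19) at 1.08 to 4.55 TPM in co-cultured and 0.49 to 1.78 TPM in mono-cultured cells. FGA, a fibrinogen chain, differed by -0.43 (limma adjusted p = 0.17). In Caco-2 cells all 6 tested were above 0 with a median of 0.58, and FGA had 50.7 to 75.2 TPM in co-cultured against 31.5 to 48.3 TPM in mono-cultured libraries (0.73, limma adjusted p = 0.21). The other fibrinogen chains did not overlap between these cultures either, FGB at 147 to 221 against 39.3 to 118 TPM and FGG at 595 to 909 against 255 to 529 TPM. Of all genes tested in Caco-2 cells, 0.749% had every co-cultured library above every mono-cultured one. The remaining tested genes of the list overlapped. Of the 8 genes of the cytokine receptor and liver factor list, 2 were above 0 and 6 below in HepG2 cells, led by the liver factors CREB3L3 (-0.68, limma adjusted p = 0.40, and 0.041 with the block) and HNF4A (-0.28, limma adjusted p = 0.41).

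The 7 remaining lists had medians between -0.26 and -0.00031 in HepG2 cells. Iron uptake had 5 of 10 tested genes above 0 (largest LCN2 at -0.60 and SLC22A17 at -0.51), export and ferroxidases 0 of 3 (CP at -0.28 and FLVCR1 at -0.26) and ferritin delivery 1 of 3 (NCOA4 at -0.15 and PCBP1 at 0.14). Among the iron regulatory proteins 1 of 3 was above 0 (IREB2 at 0.21 and FBXL5 at -0.16). Heme synthesis had 3 of 8 above 0 (ALAD at -0.38 and PPOX at -0.25), heme and hemoglobin binding 2 of 6 (HPX at -0.19 and HP at -0.18), and mitochondrial iron and iron-sulfur assembly 6 of 13 (GLRX5 at -0.24). No gene of these 7 lists passed limma's test in either line without the block, and MCOLN1 and ALAD passed with it in HepG2 cells.

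The genes whose pattern was most like that of HAMP over the 12 HepG2 libraries were found by Pearson correlation of log2(TPM + 1) among 14255 genes, as a description. The libraries fall into co-cultured and mono-cultured clusters, so a pooled correlation is largely that split, and the value after subtracting group means is given second. The highest were BYSL (0.94 and 0.77), ID2 (0.93 and 0.56), BOP1 (0.92 and 0.44), NAF1 (0.91 and 0.66) and TRAP1 (0.91 and 0.71). BYSL, BOP1 and NAF1 are known from ribosome or ribonucleoprotein assembly and TRAP1 is a mitochondrial chaperone. The lowest were ARF5 (-0.94 and -0.76), ENPP2 (-0.94 and -0.63) and WDR6 (-0.92 and -0.62). BYSL had 61.8 to 79.2 TPM in co-cultured and 53.3 to 60.9 TPM in mono-cultured cells, a much narrower range than HAMP. Among the members, FTL (0.77) and TFRC (0.69) were the most alike and TF (-0.70) and TMPRSS6 (-0.70) the least, and after subtracting group means these were -0.09, -0.24, -0.12 and -0.32. The BMP-SMAD targets tested beside ID2 were split. SMAD7 (0.90 and 0.07), ID3 (0.79 and -0.10) and ID1 (0.75 and -0.16) fell to near or below 0 within groups. BAMBI (0.69 and 0.64) and SMAD6 (0.66 and 0.81) did not.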

How the data were processed

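The authors deposited 1 table of TPM per library for 23 libraries. According to the methods and the submitters' processing notes, SMART-Seq cDNA was sequenced on an Illumina instrument, reads of rRNA, tRNA and the mitochondrial genome were removed (Bowtie2 2.1.0), the rest were mapped to GRCh38 (STAR 2.7.1a, Ensembl 98) and RSEM 1.3.0 gave the TPM of each gene. TPM keep no counts, so no counting error is given.

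Values were analysed as log2(TPM + 1), a pseudocount of 1, with Python 3.11.15 (numpy 2.4.6, pandas 2.3.3, matplotlib 3.10.9) and limma 3.58.1 in R 4.3.3 (eBayes with a trend). The 4 groups of a line were fitted together, and all 8 groups for the comparison of lines. Genes whose mean reached 1 TPM in no group were left out. P-values were adjusted over all genes of a fit by Benjamini-Hochberg. On simulated data for the FFAs comparison, with 100 changed genes per size, limma recovered 92% of log2 changes of 1 in Caco-2 and 85% in HepG2 cells. It called 12 and 10 unchanged genes. Log2 changes smaller than 1 were not simulated, and all FFAs differences of the members were smaller than that. The rates therefore do not speak for differences of the size seen here. Nor do they speak for genes that vary widely between libraries, such as HAMP in HepG2 (SE 0.53 for FFAs) and TF in Caco-2 cells (SE 0.72).

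Same-numbered libraries of co-culture and mono-culture deviated together in HepG2 cells, with correlations of 0.11 to 0.60 in 6 of 6 pairs, so blocked values stand beside that comparison. This pairing comes from the data, since the labels do not say what a number marks. Over all pairs of HepG2 groups, 7 of 36 differently numbered pairs were also over 0.1. Co-cultured control 1 had a higher correlation with mono-cultured control 2 (0.19) than with mono-cultured control 1 (0.11).

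The members and lists were chosen with earlier results of these data known. All 10 members were reported, and of the other iron genes those called and, per list, the 2 with the largest co-culture difference in HepG2 cells, and the 5 genes most and 3 least correlated with HAMP. HJV, BMP2, BMP6, ID1, ID3, BAMBI, SMAD6 and FGB were named in addition, after their values were seen. One gene that this rule names is not reported here. Promoters came from RefSeq and gene models from GENCODE v44, which is later than Ensembl 98.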

Additional observations from a re-analysis of the deposited data

How the results depend on the processing

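Settings were a pseudocount of 0.1, no filter, quantile normalization, median-of-ratios scaling, a replicate block and each library left out, and, chosen after seeing the data, the 2 co-cultured Caco-2 libraries numbered 1 or the 4 HepG2 libraries numbered 3 left out (HAMP then gave no value in Caco-2 cells). Counts of called genes were low and moved. Without a filter, Caco-2 cells had 7 (FFAs), 10 (interaction) and 7 (co-culture) called genes and HepG2 cells 1, 1 and 1. Quantile normalization left 4 for co-culture in HepG2 cells. Without the libraries numbered 1, which leaves 1 co-cultured control library, Caco-2 counts were 6, 6 and 16, and without those numbered 3, HepG2 counts were 2, 2 and 4. With single libraries left out, the Caco-2 counts ran from 0 to 17 (FFAs), 0 to 12 (interaction) and 0 to 13 (co-culture), each highest without co-cultured control replicate 2 and next without replicate 1 (8, 8 and 9), where the lone library left in that group is assumed to vary like those of the other groups, and the HepG2 co-culture count from 0, without mono-cultured control replicate 1, to 15, without co-cultured FFAs-treated replicate 3. The cause was not tested.

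Same-numbered libraries of different groups deviated together with correlations of -0.093 to 0.31 in Caco-2 (7 of 15 over 0.1) and 0.028 to 0.60 in HepG2 cells (15 of 18), and over 0.1 in all 6 HepG2 pairs of co-culture with mono-culture. Differently numbered pairs ran from -0.28 to 0.28 in Caco-2 (6 of 30 over 0.1) and from -0.49 to 0.34 in HepG2 cells (7 of 36). The replicate block gave 60 called genes for co-culture in Caco-2 and 492 in HepG2 cells, including all 8 called without it, and changed no call for FFAs, the interaction or a member. 

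No member was called for FFAs under any setting. FFAs differences near 0 changed sign: in Caco-2 cells HAMP (0.064, pseudocount of 0.1), TFRC (-0.0069, median-of-ratios) and FTH1 (-7.86e-05, median-of-ratios, and -0.0062, replicate block), and in HepG2 cells, without libraries numbered 3, TFR2 (-0.057), FTH1 (0.061) and FTL (0.015). With single libraries left out, the Caco-2 differences ran from -0.79 to 0.52 for HAMP, -0.18 to 0.20 for TFRC, -0.090 to 0.23 for TFR2, -0.024 to 0.063 for FTH1, -0.44 to 1.11 for TF and -0.093 to 0.25 for TMPRSS6, and the HepG2 ones from -0.022 to 0.094 for TFRC, -0.043 to 0.15 for HFE and -0.047 to 0.068 for FTH1. Recomputed co-culture differences of the members moved by less than the spread between replicates in 345 cases and by more in 4, which were HAMP with a pseudocount of 0.1 (6.18 in HepG2, 2.67 in Caco-2 cells), TF in HepG2 cells (-0.09) and FTL in Caco-2 cells (0.03) after quantile normalization. The 345 include changes of sign in Caco-2 cells. They were TF (-0.26), TFR2 (-0.13) and SLC11A2 (0.0014) without both libraries numbered 1, and TFR2 (to -0.05), SLC40A1 (to -0.02) and SLC11A2 (to 0.0067) with single libraries left out. Line differences kept their call in 287 cases, and the exceptions were FTL and FTH1 after quantile normalization and HAMP with a pseudocount of 0.1. For ID2 and SMAD7, 21 alternatives kept the call and 15 lost it. TPM hold no depth, so the precision of low genes such as HAMP in Caco-2 cells cannot be given.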

Other observations

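In HepG2 cells the library numbered 3 was the highest of its group in all 4 groups for SLC40A1 and FTH1 and the lowest in all 4 for HFE, a pattern chosen after the values were seen. SLC40A1 had 30.4, 27.8, 44.2 and 37.1 TPM in these libraries against 16.1 to 26.8 TPM in the other 8. HFE had 4.92, 4.04, 5.68 and 5.98 TPM against 5.83 to 9.35 TPM. FTH1 had 12219, 11092, 10938 and 10179 TPM against 8379 to 9968 TPM. FTH1 and SLC40A1 did not overlap between these libraries and the rest, as in 4.91% of all genes tested with these libraries above. The same libraries had more genes above 0 TPM than the other 8. The labels do not say what a replicate number stands for, and its part in these values was not tested.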
